A study of Mus musculus with 6 samples.

Results

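The complement genes described here are 9 of the 56884 genes in the deposited tables, taken by gene symbol: C1qa, C1qb and C1qc, C1ra and C1s1, Serping1, C3, C4b and C3ar1. All 9 were listed in each of 6 single-cell libraries. Their transcripts were followed in microglia and astrocytes of the cerebral cortex and in fibroblasts and epithelial cells of the lung. A transcript was counted as a unique molecular identifier (UMI). A barcode was taken as a cell with at least 1500 UMIs, or 700 in the Hgf lungs. It was placed in a class when at least 3 marker genes of that class stood above their share in free RNA, and when the next class had no more than 0.5 of its marker share. UMIs were then summed per library and class and divided by all UMIs of the class, as CPM, the UMIs of a gene per 1000000 UMIs of the class.

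Each library held cells of 2 mice of 1 genotype. In the 3 mutants (iPCKO), an inducible Cre driven by Pdgfrb sequences (Pdgfrb(BAC)-CreERT2) removed Bdnf, Hgf or Nodal in pericytes, and this driver is also active in vascular smooth muscle cells. The controls were Bdnf lox/lox, Hgf lox/lox or Nodal lox/lox mice without Cre, so the transgene and the deletion cannot be told apart in these libraries. All mice, controls included, received 50 µg of tamoxifen on each of postnatal days 1 to 3. Lungs of the Bdnf and Hgf pairs were taken at postnatal day 21, and CD45+ cells and erythrocytes were depleted. The cortex of the Nodal pair was taken at postnatal day 12 without meninges, and myelin debris was removed. Mice were grouped without regard to sex.

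With 1 library per genotype no test between conditions was possible. The intervals below are 95% intervals for counting error only, and the spread between mice or libraries was not measured. A gene was called higher or lower when its CPM differed at least 1.5-fold and at least 20 UMIs were counted in both libraries of the pair together. Total UMIs ran from 33889545 to 186701379 per library, and 3237 to 24311 barcodes per library were kept, with median UMIs of 2841 to 7792 per barcode. Between 5.25% and 14.3% of barcodes held markers of several classes and were left out. Any 2 libraries shared 21 to 457 barcodes, where unrelated barcode draws would give 17.8 to 457. By ratio, the pairs furthest above that number were Nodal iPCKO with the Hgf control (108 against 80.2) and with Hgf iPCKO (116 against 88.6), and by count it was Bdnf iPCKO with the Hgf control (432 against 389). As a check of the labels, Nodal had 187 UMIs (114 CPM) in control pericytes of the cortex, against 0 in those of Nodal iPCKO. Hgf had 24 UMIs (112 CPM) and 10 UMIs (21.2 CPM) in control and mutant lung pericytes. Bdnf had 14 and 12 UMIs (20.8 and 17.7 CPM) in the lung pericytes of its pair, so its loss was not visible at this depth.

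Complement is a cascade of plasma and tissue proteins that tags surfaces for removal. C1q, built from the chains of C1qa, C1qb and C1qc, recognises a target and activates the proteases C1r and C1s, which cleave C4 and lead to the cleavage of C3. C1 inhibitor, the product of Serping1, blocks both proteases, and C3ar1 encodes the receptor for the C3a fragment. In the developing brain, C1q and C3 are known for tagging synapses that microglia take up. In the lung, alveolar epithelium and fibroblasts are known local sources of complement proteins.

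The 3 C1q genes lie side by side within 20153 bases of chromosome 4 on the minus strand (GRCm39): C1qb at chr4:136606009-136613511, C1qc at chr4:136616466-136620376 and C1qa at chr4:136623223-136626161. C3 lies at chr17:57510964-57535155 and C4b at chr17:34947354-34962912, both on the minus strand. C1ra (chr6:124489364-124500402, plus strand) and C1s1 (chr6:124507297-124559389, minus strand) are neighbours. Serping1 lies at chr2:84595705-84620873 and C3ar1 at chr6:122823393-122833122, both on the minus strand. All 9 are annotated as protein coding. C1qb and C1qc were read almost only in microglia and macrophages, and C3 had the largest difference of a member between genotypes in microglia. The sequences upstream of these genes are shown, as minus-strand members whose promoter sequence reaches upstream of the annotated gene. They come from RefSeq's promoter table (GRCm38.p6), which held 6 of the 9 genes, and each matched GRCm39 once, at chr4:136613512-136613761, chr4:136620377-136620475 and chr17:57535156-57535386. They are given 5′ to 3′ on the minus strand, the strand of the genes, without bases inside an annotated gene. Capitals mark matches to the motifs named after them.
C1qb promoter: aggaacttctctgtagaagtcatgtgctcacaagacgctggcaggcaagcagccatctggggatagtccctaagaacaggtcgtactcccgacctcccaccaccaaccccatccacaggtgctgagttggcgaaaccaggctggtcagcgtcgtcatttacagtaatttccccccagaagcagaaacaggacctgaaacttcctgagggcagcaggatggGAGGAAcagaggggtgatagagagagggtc
C1qc promoter: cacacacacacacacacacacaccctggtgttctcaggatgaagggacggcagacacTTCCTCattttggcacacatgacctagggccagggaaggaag
C3 promoter: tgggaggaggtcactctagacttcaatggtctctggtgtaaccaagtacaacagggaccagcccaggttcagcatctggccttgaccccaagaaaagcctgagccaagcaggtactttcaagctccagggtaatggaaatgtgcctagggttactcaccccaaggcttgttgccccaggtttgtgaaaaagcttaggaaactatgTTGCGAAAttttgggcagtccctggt
The 5 motifs were searched on both strands of the 250 bases before the start that RefSeq gives, which for C1qc and C3 lies inside the annotated gene, so the searched window runs past the letters printed. The PU.1 motif GAGGAA was found in the C1qb window and, on the other strand, in the C1qc window. It was present in 23.3% of all 32851 promoters of the table. The C/EBP motif TTGCNNAA was found in the C3 window and in 9.56% of all promoters. An IRF motif (GAAA, any 2 bases, GAAA; found in 2.98% of promoters), an NF-kB motif (GGGA, TT and CC with any 1 base between each; 0.980%) and the STAT motif TTCNNNGAA (7.02%) had no match in these windows. A match is a run of letters and was not tested as a binding site.

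In the control cortex, the C1q genes and C3ar1 were read in microglia and perivascular macrophages. C1ra, C1s1 and Serping1 were read in mural cells and fibroblasts, and C4b in perivascular macrophages, fibroblasts and astrocytes. C1qa stood at 1495 CPM in control microglia, C1qb at 3308 CPM and C1qc at 4026 CPM. In perivascular macrophages, of which there were 25, the summed C1q level was 94.6% of the microglial one. In astrocytes, endothelial cells, pericytes, fibroblasts and neurons it was 0.138% to 0.220% of it. Free RNA, read in barcodes with 10 to 100 UMIs, held 11.2% of the microglial level, so the C1q UMIs outside these classes stood below the free RNA level and were read as background. C3ar1 stood at 541 CPM in control microglia and at 1208 CPM in perivascular macrophages. Fibroblasts of the cortex had the highest control level of Serping1 (343 CPM) and of C4b (27.5 CPM) among classes with at least 50 cells. With a stricter gate only 22 fibroblasts were left, at 293 and 26.3 CPM of these genes. Among the same classes, pericytes had the highest level of C1ra (18.9 CPM) and C1s1 (35.4 CPM). C3 was nearly absent from the control cortex, with 4 UMIs in microglia (0.725 CPM) and none in 767 astrocytes. Its counting interval in microglia (0.197 to 1.86 CPM) overlaps those of the other classes.

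**Figure D1:**
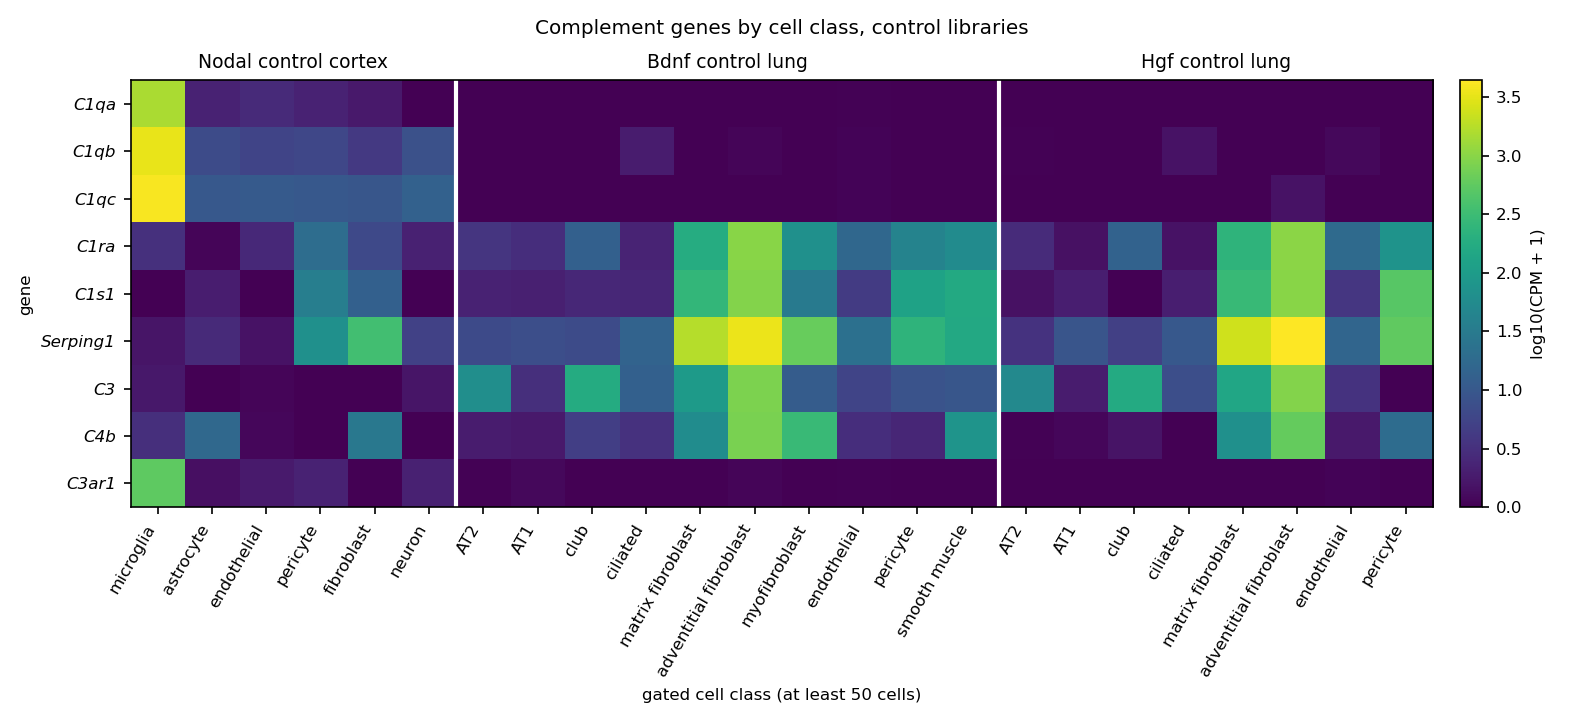
Level of each complement gene (rows, log10 of CPM + 1) in every gated class with at least 50 cells (columns) of the 3 control libraries. C1qa, C1qb, C1qc and C3ar1 are bright in cortex microglia, and C1ra, C1s1, Serping1, C3 and C4b are bright in adventitial fibroblasts of both control lungs.

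In the control lungs, C1ra, C1s1, Serping1, C3 and C4b all had their highest level, among classes with at least 50 cells, in adventitial fibroblasts, the fibroblasts that ensheath larger vessels and airways. C1ra stood there at 977 CPM in the Bdnf control and 1014 CPM in the Hgf control, and C1s1 at 921 and 983 CPM. Serping1 reached 3397 and 4405 CPM. C3 stood at 851 and 919 CPM, and C4b at 805 and 612 CPM. Matrix fibroblasts were next for Serping1, with 1739 and 2364 CPM. Among the same classes, club cells were next for C3, with 172 and 168 CPM, followed by matrix fibroblasts with 95.6 and 143 CPM, although these intervals overlap in the Hgf control. Alveolar type 2 (AT2) cells had 61.3 and 50.1 CPM of C3. C4b followed another order in the Bdnf control, where myofibroblasts (293 CPM) stood above matrix fibroblasts (58.4 CPM). Alveolar type 1 (AT1) cells had at most 7.99 CPM of any of these 5 genes in the controls. The genes were thus shared between adventitial cells of both lungs at similar levels. In AT2 and club cells of both controls C3 stood above its level in free RNA (42.9 and 28.9 CPM), and the other 4 genes stood below theirs, the highest being C1ra in club cells at 11.9 and 13.1 CPM.

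In microglia, the Nodal pair addressed whether complement transcripts differed when pericytes lacked Nodal. The classes held 860 control and 1393 mutant cells with median UMIs of 6153 and 6430. C3 was the member with the largest difference. C3 had 4 UMIs in control and 90 UMIs in Nodal iPCKO microglia, or 0.725 and 9.33 CPM, a 12.9-fold higher level with a log2 ratio of 3.69 (2.28 to 5.59). C4b had 12 and 34 UMIs (2.08 and 3.52 CPM), which passed the fold with an interval that includes no difference (log2 0.76, -0.29 to 1.78). C3ar1 had 2987 and 6816 UMIs and was 1.31-fold higher, at 541 and 706 CPM (log2 0.38, 0.32 to 0.45), below the fold used for a call. The C1q chains were close between genotypes. C1qa was 1495 and 1581 CPM (log2 0.08, 0.04 to 0.12) and C1qc 4026 and 4261 CPM (log2 0.08, 0.06 to 0.11), while C1qb was 3308 and 3193 CPM (log2 -0.05, -0.08 to -0.02). C1ra had 12 and 24 UMIs, Serping1 4 and 8, and C1s1 none in either library. Of 7 members tested, 2 were higher and 0 lower. Both C3 and C4b had under 20 UMIs in the control and met the minimum only with their mutant UMIs. With 4 UMIs in the control, C3 could only be tested at a mutant level that also passed the fold. Of all 14164 genes tested, 19.5% passed the same fold. The members' median log2 ratio was 0.16, beside -0.07 over all genes tested.

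The C1q genes were read in nearly every microglial cell. C1qa was found in 98.5% of control and 99.2% of mutant microglia, with a median over cells of 1430 and 1505 CPM. Of all C1q UMIs, C1qa held 16.9% (exact binomial interval 16.6 to 17.3) in control and 17.5% (17.2 to 17.8) in mutant microglia. C1qb held 37.5% (37.0 to 37.9) and 35.3% (35.0 to 35.7), and C1qc 45.6% (45.2 to 46.0) and 47.2% (46.8 to 47.5). The order of the chains was the same in both libraries, and the counting intervals of C1qb and C1qc did not overlap between them.

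The C3 transcripts of mutant microglia were spread over few cells. At least 1 C3 UMI was found in 4 of 860 control cells (0.465%) and 67 of 1393 mutant cells (4.81%), and no cell held more than 7. Thinned to 3000 UMIs per cell, which left out 41 and 72 shallower cells, the shares were 0 of 819 (exact upper bound 0.449%) and 2.04% of 1321. Astrocytes, which gave 0% and 0.114% of cells with C3 at median UMIs of 9848 and 10523, served as the background class. Free RNA held C3 at 0.719 and 1.19 CPM, so the control level in microglia equals that of free RNA. The 67 mutant cells with C3 had more UMIs (median 8984) than the 1326 without (6347). They held more Itgax, an integrin chain of complement receptor 4, at 165 against 44.7 CPM, and C5ar1, the C5a receptor, at 415 against 289 CPM. C1qa stood at 1794 and 1566 CPM and the summed perivascular macrophage markers at 67.2 and 72.7 CPM in the same cells. The endothelial markers summed to 207 CPM in the cells with C3 and 87.9 CPM in those without, and the microglial markers to 13912 and 16743 CPM. The part of these differences was not tested.

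Microglia were also split by clusters built without complement genes. Control microglia lay mostly in clusters 14 (401 cells) and 11 (325 cells), and mutant microglia in clusters 12 (544 cells) and 11 (506 cells). Cluster 12 held 65 of the 90 mutant C3 UMIs, at 14.8 CPM (11.4 to 18.8), and none in its 84 control cells (upper bound 5.38 CPM). In cluster 11, C3 stood at 1.82 CPM (4 UMIs) in control and 4.63 CPM (14 UMIs) in mutant cells. C3ar1 was alike in the 2 genotypes within cluster 12, at 742 and 740 CPM. It was 619 and 720 CPM in cluster 11 and 404 and 528 CPM in cluster 14.

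The microglial identity was checked on 10 markers, all of which were found. Their summed level was 21846 CPM in control and 16559 CPM in mutant microglia. P2ry12 stood at 5423 and 3414 CPM. The perivascular macrophage markers summed to 90.5 and 72.3 CPM, with Cd163 and Cd209f at 0. Most of this sum was Mrc1 (84.9 and 63.3 CPM), while Ms4a7 (0.906 and 3.42 CPM), Pf4 (0.725 and 2.18 CPM) and F13a1 (1.27 and 2.18 CPM) were higher in the mutant. The pericyte markers summed to 33.8 and 241 CPM, nearly all of it Pdgfrb with 10 and 2022 UMIs. The Cre transgene carries Pdgfrb sequences and was present only in the mutant, so these reads cannot be told apart from the Pdgfrb gene. The part of these shifts in the C3 values was not tested. In the sum over a class, more cells with C3 and more C3 per cell cannot be told apart at this depth.

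Among 45 other complement genes, 21 were tested in microglia, of which 4 were higher and 8 lower, with a median log2 ratio of -0.41. Of all genes tested there, 19.5% passed the fold. Cfb, factor B of the alternative pathway that acts with C3, had 8 and 91 UMIs, or 1.36 and 9.48 CPM (log2 2.80, 1.66 to 3.96). Itgax had 32 and 506 UMIs, or 5.80 and 52.4 CPM (log2 3.18, 2.66 to 3.74). C5ar1 was 182 and 297 CPM (log2 0.70, 0.60 to 0.81), and Masp1, a lectin pathway protease, had 7 and 35 UMIs. Within clusters the C5ar1 levels lay closer, at 207 and 232 CPM in cluster 11, 421 and 409 CPM in cluster 12 and 95.2 and 102 CPM in cluster 14. Cfb stood at 1.14 and 6.29 CPM in cluster 11 and at 0.224 and 0.483 CPM in cluster 14. In cluster 12 it stood at 6.56 CPM (1.59 to 14.9) and 15.3 CPM (11.8 to 19.3), with overlapping intervals. The lower genes included Clu, Cd59a, Colec12, Cd46, Vtn, Csmd2 and Csmd3, each with at most 94 UMIs in a library. Itgam, the alpha chain of complement receptor 3, was 1231 and 1082 CPM (log2 -0.19) and its partner Itgb2 261 and 286 CPM (log2 0.13).

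**Figure D2:**
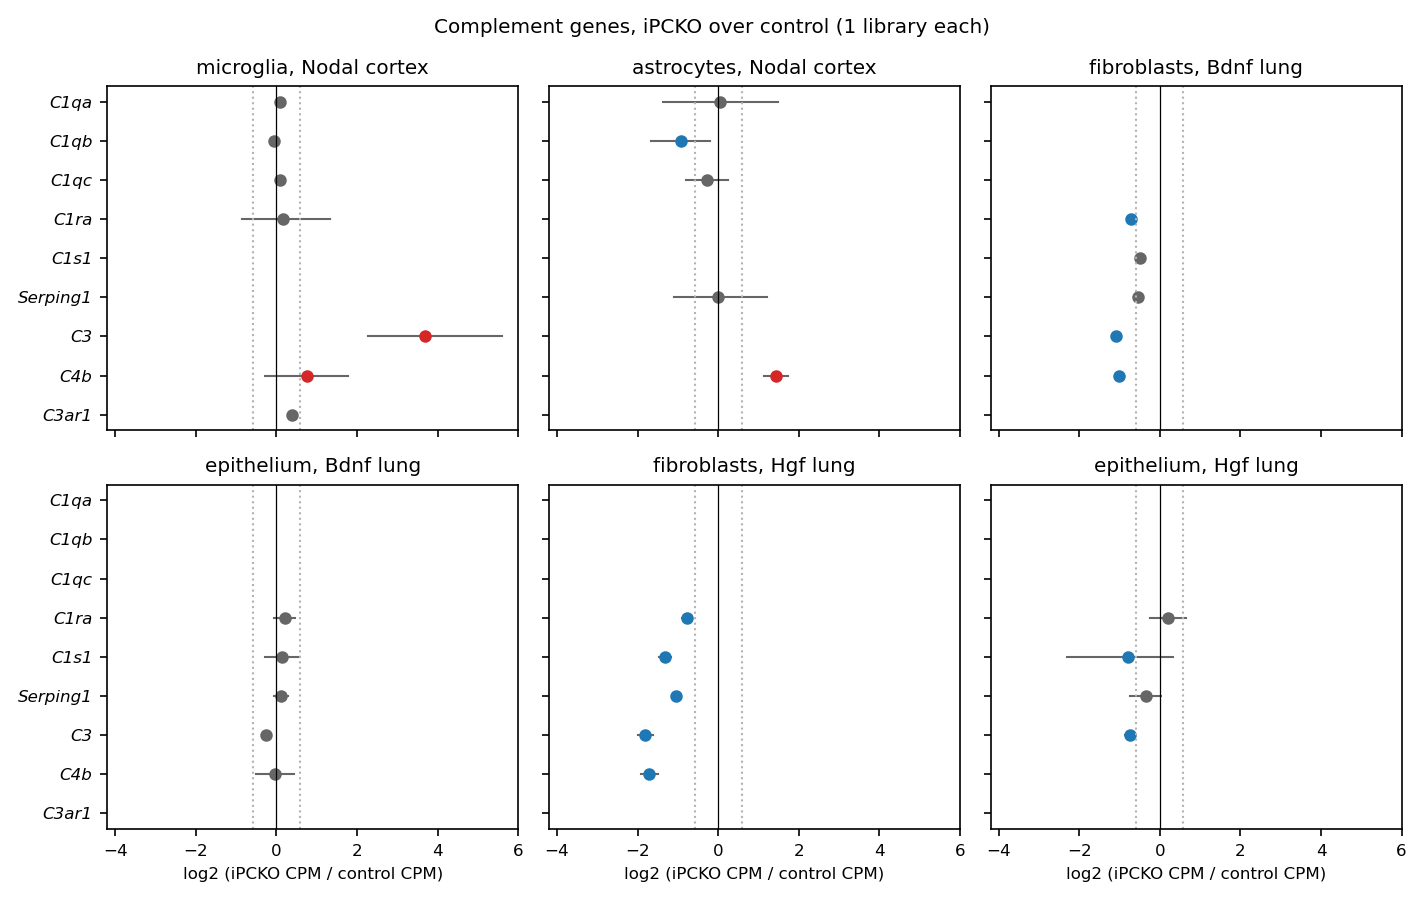
Log2 ratio of mutant over control CPM for each member with at least 20 UMIs in the pair, with its counting interval (1 library per genotype). Dotted lines mark the 1.5-fold limits and colours mark values past them, red higher and blue lower. C3 in microglia lies at 3.69, and all 5 members tested in Hgf lung fibroblasts lie below the lower limit.

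In astrocytes, C4b was the member that differed most. The classes held 767 control and 876 mutant cells. C4b had 120 UMIs in control and 386 in Nodal iPCKO astrocytes, or 16.2 CPM (13.3 to 19.2) and 43.5 CPM (39.2 to 48.0). Its log2 ratio was 1.43 (1.13 to 1.74), a 2.69-fold higher level, and the intervals of the 2 libraries did not overlap. C4b was found in 12.6% of control and 27.5% of mutant astrocytes. After thinning to 3000 UMIs per cell the shares were 2.71% of 663 and 10.9% of 763 cells. Endothelial cells, used as background, gave 0.244% and 0.547%, at median UMIs of 9700 and 9896 beside 9848 and 10523 in astrocytes. Free RNA held C4b at 1.44 and 5.38 CPM. The astrocyte markers summed to 40381 and 41663 CPM in this class. The marker sums of some other classes were higher in mutant astrocytes, at 262 and 341 CPM for oligodendrocyte precursors, 103 and 154 CPM for pericytes, 85.4 and 129.6 CPM for endothelial cells and 75.3 and 101 CPM for fibroblasts. The marker furthest above control in each list was Olig2 (80.4 and 176 CPM), Pdgfrb, which the transgene also carries (32.1 and 100.2 CPM), Ly6c1 (11.97 and 36.3 CPM) and Col1a2 (50.04 and 82.5 CPM), by the difference in CPM. Other markers of these lists were lower, such as Vcan (62.1 and 45.9 CPM), Rgs5 (31.4 and 17.4 CPM) and Col1a1 (11.8 and 8.11 CPM). The summed markers of microglia were 142 and 149 CPM and those of perivascular macrophages 3.6 and 2.6 CPM. The part of these values in the C4b difference was not tested. The difference had the same direction in the 3 clusters that held most astrocytes. It was 14.1 and 41.8 CPM in cluster 8, 47.8 and 81.4 CPM in cluster 1, and 2.30 and 20.4 CPM in cluster 10, the last from 0.5 and 4.5 estimated UMIs.

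The other members were near the background in astrocytes. C1qb had 43 and 27 UMIs (log2 -0.92, -1.68 to -0.20), which passed the fold at a level below free RNA. C1qc had 67 and 66 UMIs, C1qa 9 and 11, and Serping1 13 and 16. Of 5 members tested, 1 was higher and 1 lower, and of all 15317 genes tested 12.9% passed the fold. The median log2 ratio was 0.00 for the members and 0.01 for all genes. C4a, the close copy of C4b, had 28 and 50 UMIs (log2 0.54, -0.11 to 1.31). C4b and C4a share 19.3% of the exact 75-base windows in the last 1000 bases of C4b transcripts, so reads may be split between them. Of 20 other complement genes tested, 4 were higher (Hc, C5ar1, Itgam and Itgb2, each with at most 34 UMIs in a library) and 3 lower (Colec12, Cfp and Csmd3). Clu, an astrocyte product that restrains the terminal pathway, was 2824 and 2120 CPM (log2 -0.41, -0.44 to -0.39).

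**Figure D3:**
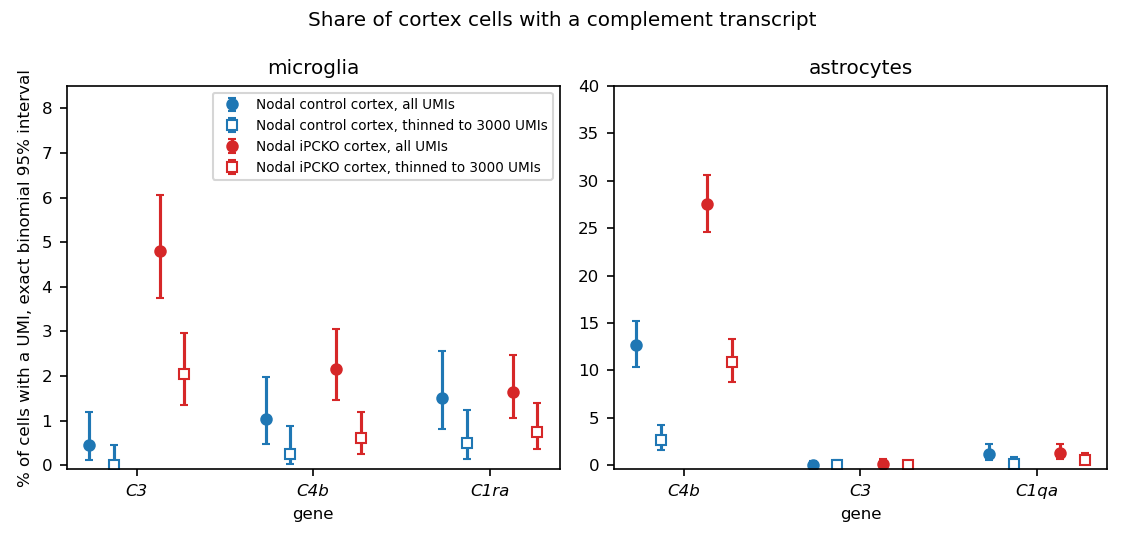
Percent of cortex microglia (left) and astrocytes (right) with at least 1 UMI of a complement gene, with exact binomial 95% intervals, before (filled circles) and after (open squares) thinning each cell to 3000 UMIs. Mutant microglia had C3 in 4.81% and control microglia in 0.465% of cells, and mutant astrocytes had C4b in 27.5% and control astrocytes in 12.6%.

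Cells of the cortex vessel wall held the C1 proteases and their inhibitor. In pericytes (273 and 411 cells), the cells in which Nodal was deleted, Serping1 was 67.5 and 75.3 CPM (log2 0.16, -0.19 to 0.50). C1s1 was 35.4 and 30.9 CPM (log2 -0.20) and C1ra 18.9 and 14.3 CPM (log2 -0.41). C1qc, with 15 UMIs in each library, was the 1 of 5 members tested that passed the fold, downwards, and 15.3% of all genes did so in either direction. C4b and C3 had no UMI in pericytes of either library. In cortex fibroblasts (93 and 118 cells), C4b had 36 and 83 UMIs, or 27.5 and 55.5 CPM (log2 1.02, 0.44 to 1.62). C1s1 had 16 and 42 UMIs (log2 1.20, 0.34 to 2.13) and C1ra 7 and 18 (log2 1.13, -0.15 to 2.68). Serping1 was 343 and 421 CPM (log2 0.30, 0.12 to 0.47). Of 4 members tested in these fibroblasts 3 were higher, and 18.5% of all genes passed the fold. Both C1s1 and C1ra had under 20 UMIs in the control and met the minimum only with their mutant UMIs. With 7 UMIs in the control, C1ra could only be tested at a mutant level that also passed the fold. In perivascular macrophages (25 and 24 cells), C4b had 25 and 72 UMIs, or 149 CPM (96.3 to 220) and 429 CPM (336 to 540), while C3ar1 had 203 UMIs in each library (1208 and 1209 CPM). C4b was thus higher in the mutant in astrocytes, fibroblasts and perivascular macrophages of the same pair of libraries.

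In the lung, fibroblasts were compared in the Bdnf and the Hgf pair. The C1q genes and C3ar1 had at most 2 UMIs each in the fibroblasts of a Bdnf library, so 5 members could be compared. In the Bdnf pair (2014 control and 2799 mutant cells), all 5 had a lower level in the mutant. C3 was 509.9 and 239.7 CPM, from 6966 and 3369 UMIs (log2 -1.09, -1.15 to -1.03). C4b was 550.2 and 272.2 CPM (log2 -1.02, -1.07 to -0.96). C1ra was 629.9 and 381.5 CPM (log2 -0.72, -0.77 to -0.67). Serping1 (2453 and 1673 CPM, log2 -0.55) and C1s1 (604.6 and 430.7 CPM, log2 -0.49) stayed within the fold. Of 5 members tested 3 were lower and 0 higher, while 5.3% of all 17018 genes tested were lower and 16.6% passed the fold in either direction. The median log2 ratio was -0.72 for the members and 0.06 for all genes tested.

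Fibroblasts are a mixture, and their makeup differed between the libraries. Adventitial fibroblasts gave 73.3% and 70.1% of the UMIs of gated subtypes in the Bdnf pair, matrix fibroblasts 17.5% and 8.80%, and myofibroblasts 9.19% and 21.1%. Within adventitial fibroblasts (630 and 906 cells) the log2 ratios kept their order. C3 was 851 CPM (830 to 872) in control and 411 CPM (396 to 426) in the mutant, a log2 ratio of -1.05. C4b was 805 and 413 CPM (log2 -0.96), C1ra 977 and 589 CPM (log2 -0.73), Serping1 3397 and 2393 CPM (log2 -0.51) and C1s1 921 and 656 CPM (log2 -0.49). Again 3 of 5 were lower, beside 4.79% of all genes lower and 16.9% past the fold in either direction. In matrix fibroblasts (432 and 272 cells), C3 showed no such difference, at 95.6 and 103 CPM (log2 0.11, -0.27 to 0.48). C4b was 58.4 and 28.6 CPM there (log2 -1.03, -1.68 to -0.37), the 1 member of 5 past the fold, beside 23.6% of all genes. In myofibroblasts (253 and 716 cells), C4b was 293 and 46.1 CPM (log2 -2.67, -3.02 to -2.33), the largest difference of a member in these subtypes of the Bdnf pair. C1ra, with 63.3 and 74 estimated UMIs, and C1s1, with 28 and 31.5, also passed the fold downwards there. Thus 3 of 4 members tested were lower, and the share over all genes is not given for this subtype. C3 had 10 and 6 UMIs in these cells.

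Per cell, C3 was uneven among adventitial fibroblasts. In the Bdnf control, 31.4% of them had no C3 UMI, the median was 337 CPM and 1 in 10 cells stood above 2331 CPM. In the mutant, 48.3% had none and the median was 78.8 CPM. Serping1 was found in all but 0.317% and 0.883% of the same cells, with medians of 3302 and 2192 CPM. Control cells were deeper, with median UMIs of 11236 and 6826, so the shares without a UMI are not at equal depth. When every fibroblast was thinned to 3000 UMIs and shallower cells were left out, the log2 ratio of C3 was -0.58, that of C4b -0.65, that of C1ra -0.27 and that of C1s1 -0.04, and 1 of 5 members passed the fold. The adventitial markers summed to 17066 and 13896 CPM and the mesothelial markers to 12.9 and 11.6 CPM in adventitial cells. AT2 markers summed to 3206 and 5239 CPM there, club markers to 436 and 1456 CPM and endothelial markers to 142 and 236 CPM. Over all fibroblasts the mesothelial markers summed to 57.1 and 22.8 CPM. The part of these values in the differences was not tested.

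In the Hgf pair (681 control and 714 mutant cells), the 5 members were again lower in the mutant. C3 was 673.7 and 192.8 CPM, from 2039 and 300 UMIs (log2 -1.80, -1.98 to -1.63). C4b was 460.7 and 141.1 CPM, from 1394 and 219 UMIs (log2 -1.71), and C1s1 2384 and 492 UMIs (log2 -1.32). Serping1 had 10965 and 2733 UMIs (log2 -1.04) and C1ra 2368 and 708 UMIs (log2 -0.78). All 5 passed the fold downwards. In this pair the background was high, since 19.3% of all 11776 genes tested were lower and 43.9% passed the fold in either direction. The median log2 ratio was -1.32 for the members and 0.13 for all genes, so that scaling by the median gene lowers each ratio of this class by 0.13.

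The makeup of the fibroblasts differed in the Hgf pair as well. Of the UMIs of gated subtypes, adventitial fibroblasts gave 81.3% in control and 51.3% in Hgf iPCKO lungs, and myofibroblasts 1.81% and 32.3%. The summed fibroblast markers were 83909 and 37893 CPM. Club markers summed to 1085 and 2691 CPM and AT2 markers to 5044 and 1682 CPM in these fibroblasts, and mesothelial markers to 97.6 and 56.6 CPM. In adventitial cells club markers summed to 1068 and 2339 CPM and matrix fibroblast markers to 1453 and 2999 CPM. The fibroblast markers of these adventitial cells summed to 108638 and 75074 CPM and their adventitial markers to 20499 and 15662 CPM. The part of these values in the differences was not tested. With subtypes weighted as in the control, C3 stood at a log2 ratio of -1.06, C4b at -1.20, C1s1 at -0.65, Serping1 at -0.53 and C1ra at -0.17, so that 3 of 5 were lower. Within adventitial fibroblasts (286 and 145 cells), C3 was 919 CPM (878 to 963) and 442 CPM (389 to 500), a log2 ratio of -1.06. C4b was 612 and 266 CPM (log2 -1.20) and C1s1 983 and 637 CPM (log2 -0.63). Serping1 was 4405 and 3053 CPM (log2 -0.53) and C1ra 1014 and 904 CPM (log2 -0.17). Beside these 3 of 5 lower members, 20.4% of all genes were lower and 44.0% passed the fold in either direction. In matrix fibroblasts (192 and 133 cells), C3 was 143 and 66.0 CPM (log2 -1.11), C1s1 288 and 137 CPM (log2 -1.07) and C4b 66.6 and 35.7 CPM (log2 -0.90), and 3 of 5 members were lower where 45.2% of all genes passed the fold. Of these, C4b had only 27.5 estimated UMIs in the control and fewer in the mutant, with an interval that includes no difference. C3 in adventitial fibroblasts thus stood at 851 and 919 CPM in the 2 controls and at 411 and 442 CPM in the 2 mutants, and C4b at 805 and 612 against 413 and 266 CPM. The controls of these pairs are separate mice and the mutants lack different genes, so the pairs are not replicates of each other. Hgf adventitial cells were deeper in the control, with median UMIs of 6763 and 3483. The part of depth in these differences was not tested.

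**Figure D4:**
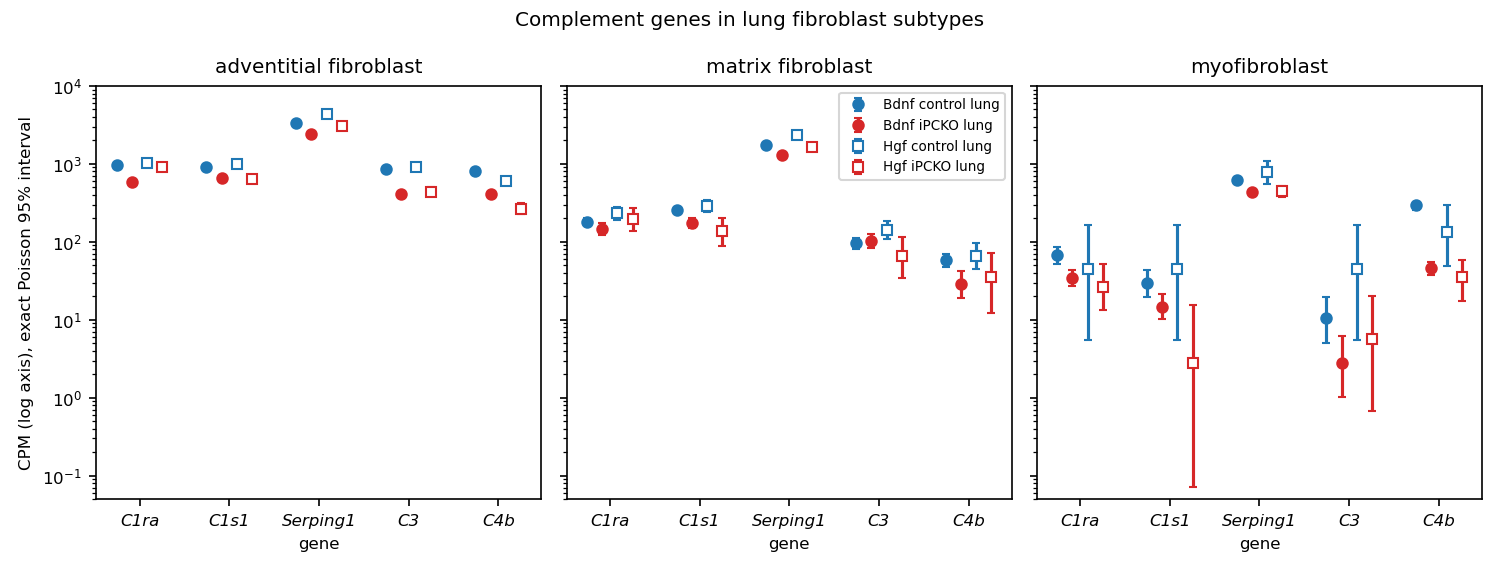
CPM on a log axis of the 5 members read in lung fibroblasts, by subtype and library, with exact Poisson 95% intervals (filled circles Bdnf pair, open squares Hgf pair, blue control, red mutant). In adventitial fibroblasts C3 stood at 851 and 919 CPM in the controls and 411 and 442 CPM in the mutants.

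The rest of the pathway was read in lung fibroblasts as well. In the Bdnf pair, 25 of 45 other complement genes were tested, of which 3 were higher (Masp1, Mbl1 and Colec11) and 7 lower, with a median log2 ratio of -0.41, where 16.6% of all genes passed the fold. The lower genes were C2, C4a, Cfb, C7, Cd59a, Clu and Cpn1. Within adventitial cells 21 were tested, of which 2 were higher and 6 lower, with a median of -0.33, where 16.9% of all genes passed the fold. Among the lower genes Cfb was 82.1 and 25.99 CPM (log2 -1.66, -1.91 to -1.42). C2, which is cleaved together with C4, was 140 and 79.8 CPM (log2 -0.81), and C7, a terminal component, 33.9 and 13.9 CPM (log2 -1.28). In the Hgf pair, 17 other genes were tested, of which 4 were higher (C1rb, Masp1, Cd46 and Csmd1) and 11 lower, with a median of -0.77, where 43.9% of all genes passed the fold. Within adventitial cells of this pair 13 were tested, of which 2 were higher and 3 lower, with a median of -0.43, where 44.0% of all genes passed it. C2 was there 160 and 119 CPM (log2 -0.43) and Cfb 66.6 and 47.6 CPM (log2 -0.48, -1.13 to 0.13). Cd55, which disassembles C3 convertases, was 109 and 26.4 CPM (log2 -2.04, -2.91 to -1.29).

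The 2 control lungs were compared as 1 example of a difference between libraries without Cre, which does not measure the spread between libraries. They differ in floxed line, in depth and in the minimum of UMIs per barcode. In fibroblasts, Hgf control over Bdnf control, 0 of 5 members passed the fold, while 31.6% of all genes did. C1ra stood at a log2 ratio of 0.31, C1s1 at 0.38, Serping1 at 0.56, C3 at 0.40 and C4b at -0.26, beside a median of -0.11 over all genes. On the same log2 scale, the differences of C3 and C4b between mutant and control fibroblasts of either pair were larger in size than these. Those of Serping1 (-0.55) and C1s1 (-0.49) in the Bdnf pair were close in size to the values between controls, with the opposite sign. After thinning, C3 in the Bdnf pair stood at -0.58. In epithelium 3 of 5 members were lower in the Hgf control (C4b -2.71, C1s1 -1.22 and Serping1 -0.66), each at no more than 6.49 CPM, where 32.6% of all genes passed the fold. C3 in epithelium was 56.0 and 49.2 CPM (log2 -0.19).

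The paralogs C1rb and C1s2 differed far more between the lines than the members did. In adventitial fibroblasts of the Bdnf control, C1s2 had 990 UMIs (132 CPM), and in those of the Hgf control it had 4 UMIs (2.05 CPM), a log2 ratio of -6.01 (-7.91 to -4.67). C1rb had 688 and 10 UMIs, or 91.4 and 4.90 CPM (log2 -4.22, -5.25 to -3.30). C1s1 stood at 921 and 983 CPM and C1ra at 977 and 1014 CPM in the same cells. In the Hgf mutant, C1rb had 19 UMIs (33.7 CPM) and C1s2 2.5 estimated UMIs in these cells. C1rb lies inside the span of C1s1 on the opposite strand, and C1ra shares 20.7% and C1s1 10.6% of their 75-base windows with their paralogs. The deposited counts divide reads that match several genes among them, and the settings listed by the study name no strand. Part of a paralog's count may therefore come from its partner. The cause of the difference between the controls was not tested.

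In lung epithelium, C3 was the member with the most UMIs. In the Bdnf pair (7921 and 10291 cells) it stood at 56.0 and 46.4 CPM, from 4374 and 3519 UMIs (log2 -0.27, -0.34 to -0.21). None of the 5 members tested passed the fold, where 16.4% of all genes did. C1ra (log2 0.20), C1s1 (0.13), Serping1 (0.11) and C4b (-0.04) each had an interval that includes no difference. C1ra was 2.67 and 1.82 CPM in AT2 cells alone (log2 -0.56, -1.01 to -0.11). In the Hgf pair (6724 and 5602 cells), C3 was 49.2 and 29.4 CPM, from 1826 and 824 UMIs (log2 -0.74, -0.86 to -0.62). C1s1, with 20 and 8 UMIs, also passed the fold (log2 -0.79, -2.31 to 0.33), so that 2 of 4 members were lower, beside 33.4% of all genes past the fold in either direction. The makeup of the epithelium differed as well. Of the UMIs of gated subtypes, AT2 cells gave 73.6% and 64.6% in the Bdnf pair and 77.2% and 64.2% in the Hgf pair, and ciliated cells 5.41% and 9.53%, and 6.33% and 17.4%. Within the Hgf epithelium, Cldn18 was 1293 and 579 CPM and the mesothelial marker Msln 0.997 and 17.0 CPM. The part of these values in the differences was not tested.

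The level of C3 differed by epithelial subtype. In AT2 cells, the surfactant-producing cells of the alveoli, C3 was 61.3 and 54.0 CPM in the Bdnf pair (log2 -0.18, -0.27 to -0.10) and 50.1 and 33.3 CPM in the Hgf pair (log2 -0.59, -0.75 to -0.43). In the Hgf pair most epithelial barcodes lay in different clusters by genotype, with 5096 control and 343 mutant barcodes in one and 260 and 3336 in another. Endothelial barcodes of this pair were split as well, with 2797 control and 221 mutant barcodes in one cluster and 120 and 3222 in another. In Hgf AT2 cells the AT2 markers summed to 138023 and 102582 CPM and the club markers to 7042 and 17523 CPM, and their part in the differences was not tested. Of 5 members tested in Bdnf AT2 cells 0 passed the fold (16.7% of all genes), and of 3 in Hgf AT2 cells 1 was lower (33.4% of all genes), C3 itself with a 1.504-fold difference at the limit. Club cells, secretory cells of the airways, had the highest epithelial level. C3 was 172 CPM (158 to 187) and 104 CPM (95.6 to 114) in the Bdnf pair, with a log2 ratio of -0.72 (-0.90 to -0.55). It was 168 CPM (149 to 188) and 62.6 CPM (51.3 to 75.7) in the Hgf pair, with a log2 ratio of -1.42 (-1.76 to -1.10). Of 3 members tested in Bdnf club cells 1 was lower, beside 15.3% of all genes, and of 2 in Hgf club cells 1 was lower, beside 34.2%. The median over all genes was -0.12 in Hgf club cells. Ciliated cells went the other way, at 11.9 and 19.9 CPM in the Bdnf pair and 6.59 and 13.8 CPM in the Hgf pair, levels below that of free RNA (42.9 and 41.7, 28.9 and 14.8 CPM). AT1 cells stood between 0.886 and 2.10 CPM in the 4 libraries.

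Club cells with a C3 UMI were 67.9% of 234 control and 56.4% of 408 mutant cells in the Bdnf pair, and 68.5% of 178 and 30.6% of 232 in the Hgf pair. Thinned to 3000 UMIs per cell in the Bdnf pair the shares were 39.4% and 22.8%, and thinned to 1400 UMIs in the Hgf pair 18.2% and 7.25%. AT1 cells, used as background, gave 1.66% and 0.542%, and 0.383% and 0.300%. The median UMIs of club cells were 12846 and 11663 in the Bdnf pair and 10159 and 7646 in the Hgf pair, and those of AT1 cells 7837 and 4034, and 3999 and 2681.

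**Figure D5:**
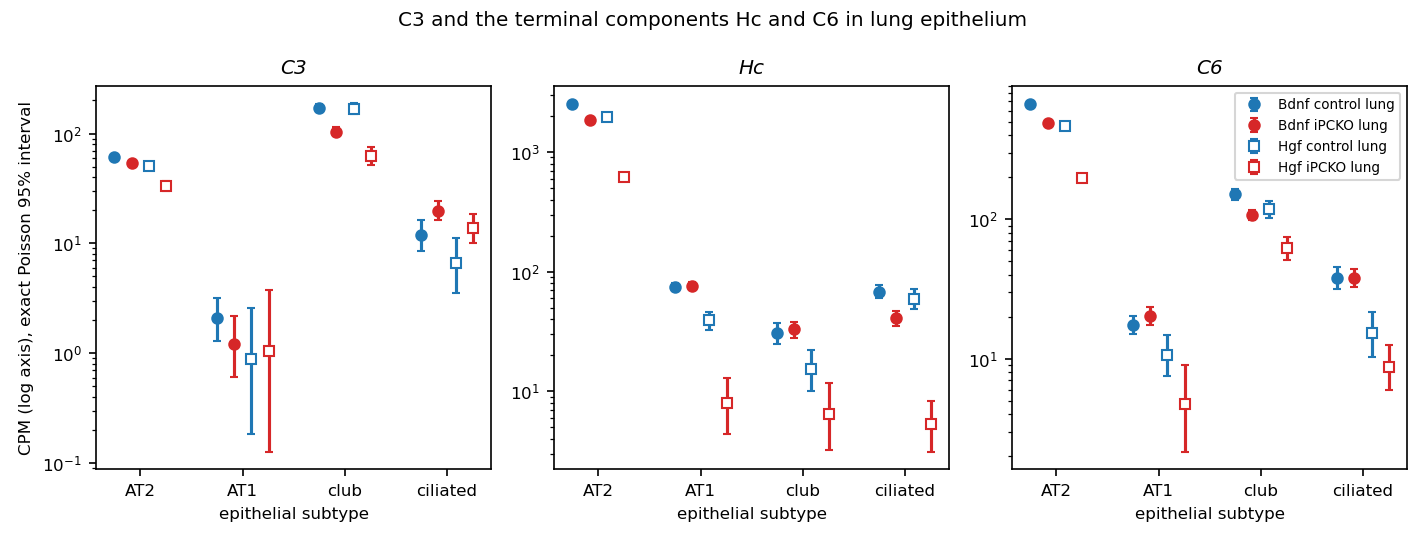
CPM on a log axis of C3 and of the terminal components Hc and C6 in 4 epithelial subtypes of each lung library, with exact Poisson 95% intervals (filled circles Bdnf pair, open squares Hgf pair, blue control, red mutant). C3 is highest in club cells, with 172 and 168 CPM in the controls and 104 and 62.6 CPM in the mutants, and Hc and C6 are highest in AT2 cells.

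Terminal complement genes were read in AT2 cells at far more UMIs than C3. Hc, which encodes C5, was 2532 and 1868 CPM in AT2 cells of the Bdnf pair (log2 -0.44, -0.45 to -0.42) and 1956 and 617 CPM in those of the Hgf pair (log2 -1.67, -1.70 to -1.63), where the epithelial barcodes of the genotypes lay largely in separate clusters. C6 was 669.9 and 488 CPM (log2 -0.46) and 467 and 197 CPM (log2 -1.25). Over all epithelium, 30 other complement genes were tested in the Bdnf pair, of which 4 were higher (C1s2, Cfb, C8g and C4bp) and 5 lower (Hc, C6, Cd59a, Cpn1 and Cpn2), where 16.4% of all genes passed the fold. In the Hgf pair 24 were tested, of which 4 were higher (Cfb, C7, C8g and Csmd2) and 8 lower, among them Hc, C6, C5ar2, Cd59a, Cpn1, Cpn2 and C1rl. In this epithelium 33.4% of all genes passed the fold. Cd59a, which blocks the membrane attack complex, was 62.5 and 34.1 CPM in the Bdnf pair (log2 -0.87) and 69.3 and 24.1 CPM in the Hgf pair (log2 -1.52). Cfb had 16 and 109 UMIs in the Bdnf pair (log2 2.77, 2.05 to 3.67) and 8 and 20 UMIs in the Hgf pair (log2 1.69, 0.48 to 3.12). In both pairs Cfb met the minimum of 20 UMIs only with its mutant UMIs. With 8 UMIs in the Hgf control, it could only be tested at a mutant level that also passed the fold. The same holds for C1s2 in the Bdnf pair, with 7.67 and 20.5 estimated UMIs. Free RNA held Hc at 1216 and 839 CPM in the Bdnf pair and at 869 and 222 CPM in the Hgf pair, moving with its level in AT2 cells.

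Few immune cells remained in the lungs after depletion of CD45+ cells. In the Hgf pair (106 and 111 immune cells), C1qb had 46 UMIs in the control library and 1 in the mutant one, C1qc 64 and 0, C4b 31 and 0.5, and C3ar1 91 and 21. All 124 C1q UMIs of the control lay in 15 cells with macrophage markers, where C1qc stood at 397 CPM, and 15 macrophage-marked cells of the mutant had none (upper bound 20.7 CPM). C3 was 50.8 and 49.8 CPM in immune cells of this pair. In the Bdnf pair (64 and 39 immune cells), C3ar1 stood at 170 and 138 CPM. Mesothelial cells of the Bdnf pair, only 5 and 24, had C3 at 1941 CPM (1606 to 2327) and 2835 CPM (2587 to 3101), above the level of adventitial fibroblasts.

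Across the 24 control classes with at least 50 cells, the genes whose levels on the log2(CPM + 1) scale ran most like those of a member were found by Pearson's correlation. The classes share libraries, depth and free RNA, and the values are given as a description. For C1qa they included Fcrls (0.998) and Cd48 (0.995), both read in microglia, and among the members C3ar1 (0.986), C1qb (0.956) and C1qc (0.923). Among these classes C1qa was read above background only in cortex microglia, so its values rest on that class alone. For C1s1 the nearest was another member, Serping1 (0.9499), followed by Spon2 (0.940) and Tnxb (0.934). For Serping1 they were Col6a3 (0.959), Spon2 (0.953) and B3gnt9 (0.952), and for C4b Loxl1 (0.920), Olfml1 (0.912) and Srpx (0.905). C3 had looser neighbours, Serpinb8 (0.841), Rbp4 (0.826) and 1810010H24Rik (0.819), and stood at 0.494 with C4b and -0.282 with C1qa.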

How the data were processed

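Single-cell libraries were made with the BD Rhapsody whole-transcriptome kit and sequenced by the authors as paired 75-base reads. The authors aligned and counted them with STARsolo (STAR 2.7.10a) on GRCm39 with a Gencode annotation, without a cell filter. Reads matching several genes were divided by an expectation-maximisation step. The deposited values are therefore estimated counts per gene and barcode, and 8.50% to 9.95% of the entries were not whole numbers. The listed settings name no strand.

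Barcodes with at least 1500 UMIs (700 in the Hgf files) were kept and classed by markers, as described above. The marker rule was adjusted on the markers alone, without reading the complement genes. UMIs were summed per class, and CPM used all UMIs of the class. No count model was fitted, because each genotype had 1 library. Exact Poisson intervals were given for levels, conditional exact intervals for ratios (sums rounded to whole UMIs) and exact binomial intervals for shares. They cover counting error only. Where a class had no UMI of a gene, no fold is given, and 3 UMIs stood in for the missing count in calls.

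All 9 members are named in each comparison. Other complement genes are named where they passed the fold, and 3 most alike genes were named for 5 members. C1rb, C1s2 and C4a are named as paralogs. Some genes that these rules would name are not reported here. A few further genes were named after their values were seen, as were the subtype values of other complement genes. The members and gene lists were chosen with earlier results of these data known. The scripts were tested on simulated counts. Coordinates come from a GRCm39 annotation. Doublets were treated by leaving out barcodes with markers of several classes, and Scrublet served as an alternative. Python 3.11.15, numpy 2.4.6, scipy 1.17.1, pandas 2.3.3 and scanpy 1.11.5 were used.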

Additional observations from a re-analysis of the deposited data

How the results depend on the processing

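The number of members past the fold was recomputed under the alternatives, and no member past the fold in the main setting changed direction. In microglia it was 2 and became 1 with a stricter gate and with 50 UMIs as the minimum for a gene. It also became 1 with a 2-fold limit and after thinning. In these settings C3 remained and C4b was lost. With few or no control UMIs, C3 was past the fold at any mutant count that met the minimum, so these settings do not check its difference. In astrocytes the number was 2 and became 6 with no minimum of UMIs and 1 with a 2-fold limit. It became 3 in Leiden clusters, where C1qa, C4b and C3ar1 were higher. After thinning it stayed at 2, but the lower gene was C1qc in place of C1qb. In Bdnf fibroblasts it was 3 and became 5 with no minimum, 4 with median-of-ratios scaling and in Leiden clusters, where Serping1 was added, 2 with a stricter gate and with a 2-fold limit, where C1ra was lost, and 1 after thinning, where C4b remained. In Bdnf epithelium it was 0 and became 3 with no minimum and 1 in Leiden clusters. In Hgf fibroblasts it was 5 and became 3 with subtypes weighted as in the control, 4 with a stricter gate and with a 2-fold limit, where C1ra was lost, and 7 with no minimum. In Hgf epithelium it was 2 and became 1 with 50 UMIs as the minimum, after thinning and in Leiden clusters, 6 with no minimum and 0 with a 2-fold limit. With a stricter gate it stayed at 2, but C1s1 was replaced by Serping1. Where the number grew with no minimum, the added genes had under 20 UMIs, which is the construction of that setting. The cause of the other changes was not tested. The log2 ratio of C3 in microglia ran from 3.58 to 3.75 without thinning. No ratio is given after thinning, where the control held no C3 UMI and the call used 3 UMIs in its place. That of C4b in astrocytes ran from 1.18 to 1.70. In Bdnf fibroblasts C3 ran from -1.14 to -0.58 and C4b from -1.07 to -0.65. The class with the highest level was rechecked for 27 pairs of a member and a control library, and was the same in 26 with the higher minimum of UMIs per barcode and in 23 with a stricter gate. In the cortex the stricter gate left 22 fibroblasts, under the 50 cells a class needs, so the highest level of Serping1 passed to pericytes (33.3 CPM) and that of C4b to astrocytes (16.8 CPM), and C1s1 in pericytes was 20.4 CPM beside 35.4 CPM. The other changes concern C1qa, C1qc and C3ar1 in the lung, each near 0. The call of C1qb in astrocytes was lost in Leiden clusters, where its ratio was 0.00.

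Scrublet at its own threshold marked 0% of barcodes in both Bdnf libraries and 0.0205% in the Hgf control, beside 3.14% in Hgf iPCKO, so it was used only in the cortex, where no count changed. Removing the 5% of barcodes with the highest scores in every library was added after seeing the data and changed no count. No paired analysis was possible because each genotype has 1 library and the comparisons come from no test. The same reason left no replicate to leave out. Depth limits C1ra and C4b in microglia, C4b in Hgf matrix fibroblasts and C1s1 in Hgf epithelium, whose intervals include no difference.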

Other observations

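In the lung, pericytes themselves held the C1 proteases and C1 inhibitor. Serping1 stood at 230 and 272 CPM in pericytes of the Bdnf control and mutant and at 560 and 406 CPM in those of the Hgf pair. C1s1 stood at 125 and 138 CPM in the Bdnf pair and at 490 and 361 CPM in the Hgf pair. C1ra had 28 and 38 UMIs in pericytes of the Bdnf pair. In the Hgf pair it had 55.5 estimated UMIs in mutant pericytes and fewer in the control, with a log2 ratio of 0.65. No interval and no share over all genes is given for that ratio. Smooth muscle cells of the Bdnf pair had C1s1 at 163 and 141 CPM. In the cortex, vascular smooth muscle cells (17 control and 27 mutant cells) had C1s1 at 239 and 156 CPM.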
